A study of Mus musculus with 6 samples.

Results

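A set of 10 genes of the AP-1 and Egr transcription factor families was followed: 10 of the 57186 genes in the deposited count table. They were taken by symbol, but the set was chosen with earlier results of these data known. They are the Fos family (Fos, Fosb, Fosl1, Fosl2), the Jun family (Jun, Junb, Jund) and the Egr family (Egr1, Egr2, Egr3). AP-1 is a dimer of a Jun protein with a Fos protein or another Jun protein, which binds DNA through a basic region and a leucine zipper. Egr proteins are zinc finger factors that bind GC-rich sites. Growth factors, stress and tissue handling induce several of these genes within minutes, before new protein is made, through serum response factor with its ternary complex partners and through CREB, which is why they are called immediate early genes. Fosl1, Fosl2 and Jund are known to respond later or to be present more steadily, and Egr2 and Egr3 are best known in T cells for their part in restraining activation.

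The samples were bulk RNA-seq libraries of CD45-negative cells, sorted from subcutaneous tumours that MB49 mouse bladder carcinoma cells formed in C57Bl/6J mice. Tumours were harvested at 500 mm3. The first group came from CRISPR Y-KO MB49 cells, in which the Y chromosome was targeted (3 libraries), and the other from CRISPR Y-Scr MB49 cells, which carried the scrambled control (3 libraries). All 6 libraries share batch label 1. The age and sex of the hosts, whether either cell population was 1 clone, and whether replicates were separate animals are not given in the sources used here, so p-values measure the spread between these libraries only, which may be technical.

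Library totals ran from 42040955 to 52951031 counts. Transcripts of the Y-linked genes Kdm5d, Uty, Ddx3y and Eif2s3y were 13.2-fold, 10.1-fold, 9.04-fold and 6.60-fold lower in Y-KO, which checks the labels. Ptprc, which encodes CD45 itself, stood at 293, 298 and 134 CPM in Y-KO libraries, against 521, 577 and 601 CPM in Y-Scr libraries, so RNA of leukocytes was present in both groups despite the gate. CPM here is a gene's count scaled to the library total, adjusted by TMM. Within a group some libraries were closer than others. The mean chi-square between 2 libraries, over genes averaging at least 1000 counts, was 13.3 for Y-KO replicates 1 and 2 but 189 for each of these against Y-KO replicate 3, and 7.72 for Y-Scr replicates 2 and 3 against 30.65 and 41.5 for the pairs with Y-Scr replicate 1. Each member and each list count is therefore also given without Y-KO replicate 3 and with each close pair summed into 1 sample.

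The stretches before the transcription start are shown for the 7 members with a promoter entry in RefSeq (GRCm38.p6), to set side by side which short motifs each holds. Fosl1, Egr1 and Egr3 had no entry used here. Each line holds the 250 bases before the start, 5′ to 3′ on the gene's strand. Capitals mark matches to the motifs named after the lines.
Fos: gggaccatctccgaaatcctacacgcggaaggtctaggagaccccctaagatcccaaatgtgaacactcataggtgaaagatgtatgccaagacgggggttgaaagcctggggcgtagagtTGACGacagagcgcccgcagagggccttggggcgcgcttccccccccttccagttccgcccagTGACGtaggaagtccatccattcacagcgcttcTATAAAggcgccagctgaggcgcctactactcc
Fosb: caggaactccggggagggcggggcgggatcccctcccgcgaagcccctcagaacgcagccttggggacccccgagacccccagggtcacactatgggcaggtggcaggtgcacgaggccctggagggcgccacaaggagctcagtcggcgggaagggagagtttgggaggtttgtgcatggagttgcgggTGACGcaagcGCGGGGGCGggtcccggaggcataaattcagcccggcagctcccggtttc
Fosl2: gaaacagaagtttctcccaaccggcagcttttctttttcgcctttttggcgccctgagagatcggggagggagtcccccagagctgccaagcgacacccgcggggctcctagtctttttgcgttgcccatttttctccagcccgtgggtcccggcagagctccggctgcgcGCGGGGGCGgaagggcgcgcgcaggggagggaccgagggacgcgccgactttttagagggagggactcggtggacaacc
Jun: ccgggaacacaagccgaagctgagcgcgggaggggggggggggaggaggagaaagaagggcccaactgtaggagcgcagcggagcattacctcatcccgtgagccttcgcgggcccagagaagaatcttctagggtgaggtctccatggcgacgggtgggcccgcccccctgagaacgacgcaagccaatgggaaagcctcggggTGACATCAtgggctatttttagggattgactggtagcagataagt
Junb: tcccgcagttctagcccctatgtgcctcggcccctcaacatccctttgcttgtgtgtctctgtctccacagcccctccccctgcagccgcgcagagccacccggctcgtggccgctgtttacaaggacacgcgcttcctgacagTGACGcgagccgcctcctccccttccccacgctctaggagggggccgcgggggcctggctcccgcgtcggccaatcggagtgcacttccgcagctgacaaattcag
Jund: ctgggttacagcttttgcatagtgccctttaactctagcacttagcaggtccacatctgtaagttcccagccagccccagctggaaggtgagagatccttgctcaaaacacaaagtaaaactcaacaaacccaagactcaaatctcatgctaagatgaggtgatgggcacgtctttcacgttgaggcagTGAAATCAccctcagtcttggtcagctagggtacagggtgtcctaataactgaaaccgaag
Egr2: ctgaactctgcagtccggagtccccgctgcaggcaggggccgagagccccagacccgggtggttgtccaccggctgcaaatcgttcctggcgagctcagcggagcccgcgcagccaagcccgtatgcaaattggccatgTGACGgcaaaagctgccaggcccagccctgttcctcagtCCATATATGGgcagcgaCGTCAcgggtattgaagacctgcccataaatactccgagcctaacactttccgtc

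In GRCm38.p6 these windows lie at chr12:85473640-85473889 (plus strand, Fos), chr7:19310046-19310295 (minus strand, Fosb), chr5:32136222-32136471 (plus strand, Fosl2), chr4:95052223-95052472 (minus strand, Jun), chr8:84978749-84978998 (minus strand, Junb), chr8:70697489-70697738 (plus strand, Jund) and chr10:67537619-67537868 (plus strand, Egr2). For Egr2, which had 5 RefSeq starts, the start was the first of the 3 that lie within 100 bases of each other. The cAMP response element half-site TGACG, searched on both strands like every motif here, occurred at -129 and -66 before the Fos start, at -60 in Fosb, at -106 in Junb, and at -111 and -55 in Egr2. It occurred in 17.8% of the 32851 promoter windows of the same length. The AP-1 site with 1 extra base, TGANNTCA, began at -45 in Jun, as TGACATCA, and at -61 in Jund, as TGAAATCA, and occurred in 11.9% of windows. The CArG box, to which serum response factor binds, occurred in Egr2 at -72 and in 1.47% of windows. Bases outside the windows were not searched, so a window without a match does not show that the gene lacks the site. The Egr site GCGNGGGCG occurred in Fosb at -50, in Fosl2 at -79 and in 4.70% of windows, the TATA box TATAAA in Fos at -33 and in 12.4%. The 7-letter AP-1 site TGANTCA matched none of the 7 windows and 6.75% of all. No motif was held by all 7. No match overlapped another. A match is a description of letters only, and the data hold no measurement of binding.

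Among the 10 members, all of which passed the filter on low counts, Jun, Jund and Fosl1 rose in Y-KO and Egr3 fell. The other 6 did not pass the test. The 4 calls in 10 compare with 16.1% of all 17837 genes tested (edgeR, quasi-likelihood, p adjusted over all genes by Benjamini-Hochberg with a threshold of 0.05), 7.82% higher and 8.27% lower. Without Y-KO replicate 3 the members had 6 higher and 2 lower calls, where 33.7% of genes were called, and with the close pairs summed 1 higher and 1 lower, where 2.55% were. These shares of all genes are also the background for every edgeR list and marker count below. For counts by the other tools, DESeq2 called 1674 genes higher and 1943 lower, and limma-voom 1525 and 1754. The median log2 fold change was 0.42 over the members and -0.03 over all genes tested, where positive values mean higher in Y-KO. In 5 members the Y-KO and Y-Scr values did not overlap, against 37.7% of all genes tested. In bulk samples, fewer cells of a type and less RNA per cell cannot be told apart.

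**Figure D1:**
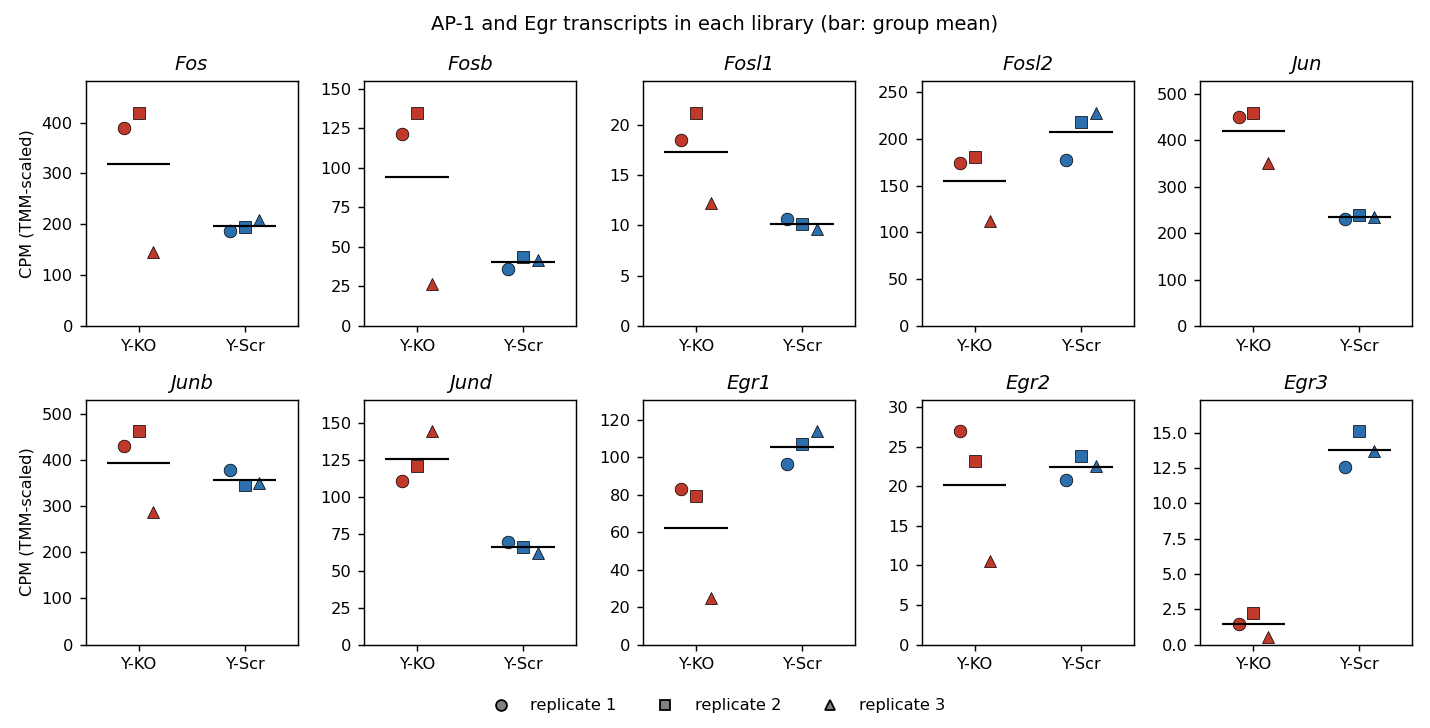
Level of each member in CPM (vertical axis, from 0, scaled per panel) in the 3 Y-KO libraries (red, left) and the 3 Y-Scr libraries (blue, right); marker shape gives the replicate and the bar the group mean. Jun, Jund, Fosl1, Egr1 and Egr3 do not overlap between the groups, while Fos and Fosb of Y-KO replicates 1 and 2 lie above the Y-Scr libraries and those of Y-KO replicate 3 below them.

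Egr3 showed the largest fold among the members. This zinc finger gene (chromosome 14, 70314652 to 70320063, GRCm39, plus strand) is known in T cells as a target of antigen receptor signalling. It had 72, 100 and 24 counts in Y-KO and 689, 673 and 733 counts in Y-Scr, or 1.49, 2.26 and 0.545 CPM in Y-KO against 12.6, 15.1 and 13.7 CPM in Y-Scr. Every Y-KO library lay far below every Y-Scr library, and Y-KO replicate 3 was the lowest. Egr3 fell 9.63-fold, by 3.27 on the log2 scale with an SE of 0.42 (edgeR adjusted p = 0.0017). With the close pairs summed the log2 fold change was -3.43 (edgeR adjusted p = 0.032), and without Y-KO replicate 3 it was -2.89 (edgeR adjusted p = 6.03e-08).

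Markers of T and NK cells were also lower in Y-KO: 10 of 11 passed the test and none was higher. The summed level of all 11 ran from 129 to 221 CPM in Y-KO and from 541 to 589 CPM in Y-Scr, with no marker at 0 in any library. All 5 B cell markers were lower, with summed levels of 20.8 to 23.2 CPM in Y-KO and 85.9 to 95.9 CPM in Y-Scr. Ms4a1 had 0 counts in 1 of the Y-KO libraries and in none of the Y-Scr libraries. With the close pairs summed 8 of the 11 T and NK cell markers and 3 of the 5 B cell markers were lower. Without Y-KO replicate 3 these were 10, with 1 higher, and 5, and over all fits without 1 library 8 to 10 and 3 to 5 were lower, the 3 without Y-Scr replicate 1. Summed neutrophil and fibroblast markers were lower in Y-KO too, as given further below. The part of any of these cells in the Egr3 result was not tested.

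The other Egr genes differed by less. Egr1 (chromosome 18, 34992876 to 34998037, plus strand), the member of the family best known as an immediate early gene, stood at 82.8, 79.4 and 25.0 CPM in Y-KO against 96.4, 107 and 114 CPM in Y-Scr. The groups did not overlap, but Y-KO replicate 3 was 3.24-fold below the mean of the other Y-KO libraries, and the difference did not pass (-0.76 ± 0.37 (SE) on the log2 scale, edgeR adjusted p = 0.202). Without Y-KO replicate 3 it was -0.38 and passed (edgeR adjusted p = 0.00201), and with the close pairs summed it was -0.95 (edgeR adjusted p = 0.3803). Egr2 (chromosome 10, 67371305 to 67378018, plus strand), known for myelination and for T cell restraint, stood at 26.9, 23.2 and 10.6 CPM in Y-KO against 20.8, 23.8 and 22.5 CPM in Y-Scr. Those groups overlapped (log2 fold change -0.15, SE 0.29, edgeR adjusted p = 0.783), and the difference was 0.16 without Y-KO replicate 3 (edgeR adjusted p = 0.334) and -0.29 with the close pairs summed (edgeR adjusted p = 0.773). Of the Egr partners listed, the co-repressor gene Nab1 fell 1.27-fold (mean 70.3 ± 3.33 CPM for Y-KO, against 89.2 ± 3.57 for Y-Scr, SD, n = 3 each; edgeR adjusted p = 0.0267). That call was lost when either Y-KO replicate 1 or 2, or any Y-Scr replicate, was left out (0.058 to 0.142), and with the close pairs summed. Nab2 did not pass (log2 fold change 0.10, SE 0.12), and Egr4 and Wt1 were too low to test.

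Both Jun and Jund rose, and each stood higher in all 3 Y-KO libraries than in any Y-Scr library. Jun (chromosome 4, 94937271 to 94940459, minus strand), the founding AP-1 subunit, had 451, 458 and 351 CPM in Y-KO against 230, 238 and 234 CPM in Y-Scr. The rise was 1.80-fold, or 0.84 ± 0.11 (SE) on the log2 scale (edgeR adjusted p = 0.00169). The call was kept without each library in turn (0.96 without Y-KO replicate 3), but not with the close pairs summed (log2 fold change 0.80, edgeR adjusted p = 0.0673). Jund (chromosome 8, 71151599 to 71153265, plus strand), which is known to restrain growth in fibroblasts, had 110, 121 and 144 CPM in Y-KO against 69.4, 65.9 and 62.0 CPM in Y-Scr. It was the 1 member with its highest value in Y-KO replicate 3. Jund rose 1.90-fold, or 0.93 ± 0.11 (SE) on the log2 scale (edgeR adjusted p = 0.00137). Its log2 fold change ran from 0.81 to 1.01 across the fits that left out a library, and with the close pairs summed it was 0.97 (edgeR adjusted p = 0.0339).

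Junb (chromosome 8, 85701113 to 85705347, minus strand), whose protein often opposes Jun in cell division, was the exception in its family. It had 430, 462 and 287 CPM in Y-KO against 378, 346 and 350 CPM in Y-Scr. Y-KO replicates 1 and 2 lay above all Y-Scr libraries and Y-KO replicate 3 below them, and the test did not pass (0.14 ± 0.16 (SE) on the log2 scale, edgeR adjusted p = 0.624). With Y-KO replicate 3 left out it was 0.32 (edgeR adjusted p = 0.000857), and with the close pairs summed 0.02 (edgeR adjusted p = 0.976). With library size alone as the scaling it was -0.0082, a setting that moved the median of all genes to -0.17 from -0.03. Exons of these genes overlap others on the opposite strand, and reads in a shared stretch were left out of the counts. The shared stretch was 7.28% of the Jun exon length (with the antisense gene Junos), 7.52% of Junb (with Prdx2) and 52.6% of Jund (with the gene model Gm11175, which had 0 counts in all). Junos had 3.43, 3.27 and 2.59 CPM in Y-KO against 4.06, 4.62 and 5.23 CPM in Y-Scr.

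Fosl1 was the only Fos family member that passed. Its protein, Fra-1, is best known from invasive carcinoma cells. Fosl1 (chromosome 19, 5497575 to 5505974, plus strand) had 18.5, 21.2 and 12.3 CPM in Y-KO against 10.6, 10.2 and 9.61 CPM in Y-Scr. The lowest Y-KO library still exceeded the highest Y-Scr library. Fosl1 rose 1.71-fold, or 0.77 ± 0.20 (SE) on the log2 scale (edgeR adjusted p = 0.0345). The call was lost without Y-KO replicate 1 or 2 or any Y-Scr replicate (edgeR adjusted p from 0.0871 to 0.132), with the close pairs summed (log2 fold change 0.66, 0.276) and with library size alone as the scaling (0.0648). Without Y-KO replicate 3 the log2 fold change was 0.97 (edgeR adjusted p = 4.3e-05). Ccdc85b on the opposite strand shares 57.2% of the Fosl1 exon length and was itself higher in Y-KO (log2 fold change 0.65, edgeR adjusted p = 0.0274). Reads inside that stretch count for neither gene.

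Fos and Fosb split the Y-KO group. Fos (chromosome 12, 85520664 to 85524047, plus strand), the classic serum-induced gene, had 390, 419 and 145 CPM in Y-KO against 187, 194 and 208 CPM in Y-Scr. Y-KO replicates 1 and 2 averaged 2.06 times the Y-Scr mean and Y-KO replicate 3 was 0.741 times that mean, so the groups overlapped and the test did not pass (log2 fold change 0.70, SE 0.32, edgeR adjusted p = 0.186). Fosb (chromosome 7, 19036621 to 19043976, minus strand), whose short form accumulates under repeated stimulation in neurons, showed the same order more widely spaced, with 122, 135 and 26.3 CPM in Y-KO against 36.3, 43.9 and 41.7 CPM in Y-Scr. Y-KO replicates 1 and 2 averaged 3.15 times the Y-Scr mean and Y-KO replicate 3 was 0.646 times it (1.21 ± 0.48 (SE) on the log2 scale, edgeR adjusted p = 0.126). With Y-KO replicate 3 left out, so that Y-KO is represented by its close pair alone, Fos was higher by 1.04 (edgeR adjusted p = 7.84e-09) and Fosb by 1.66 (edgeR adjusted p = 2.01e-09) on the log2 scale. With the close pairs summed they were 0.51 and 0.98, and neither passed (edgeR adjusted p = 0.608 and 0.494).

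Fosl2 (chromosome 5, 32293145 to 32315186, plus strand), which encodes Fra-2, had 174, 180 and 111.7 CPM in Y-KO against 178, 217 and 228 CPM in Y-Scr. Y-KO replicate 2 lay above the lowest Y-Scr library, so the groups overlapped, and the difference did not pass (-0.42 ± 0.18 (SE) on the log2 scale, edgeR adjusted p = 0.156, unadjusted p = 0.0468). It was -0.23 without Y-KO replicate 3 (edgeR adjusted p = 0.0566) and -0.46 with the close pairs summed (edgeR adjusted p = 0.39), and passed in neither.

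**Figure D2:**
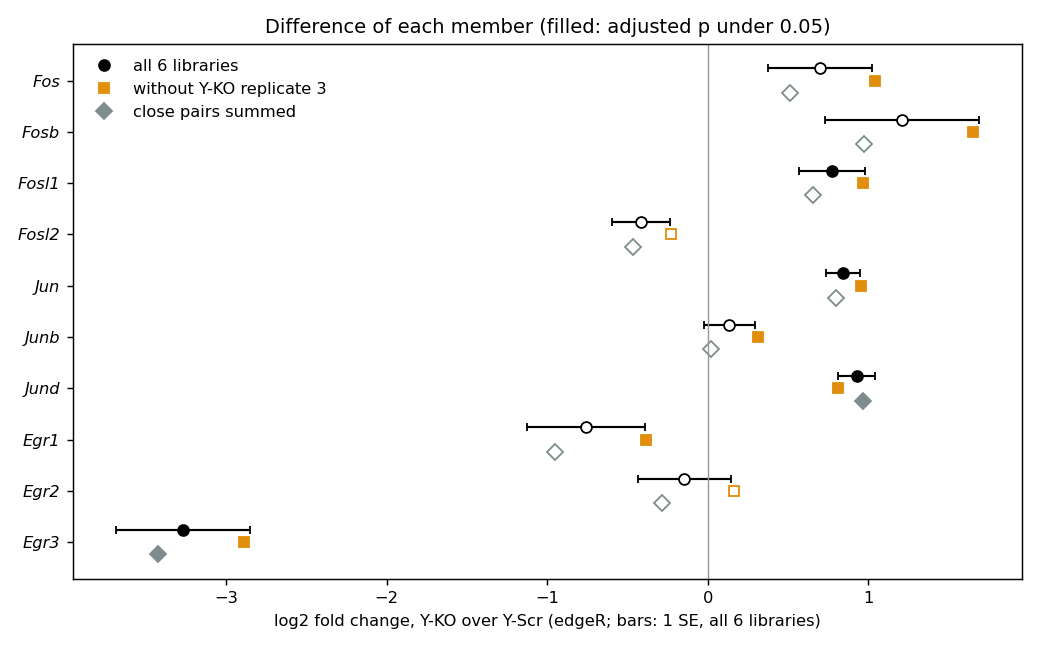
Log2 fold change of each member, Y-KO over Y-Scr (horizontal axis), from all 6 libraries (black circles, bars 1 SE), without Y-KO replicate 3 (orange squares) and with the close pairs summed (grey diamonds); filled symbols have an edgeR adjusted p under 0.05. Jund and Egr3 are filled in all 3 fits, Jun and Fosl1 in those with unsummed libraries, and Fos, Fosb, Junb and Egr1 only in the fit without Y-KO replicate 3.

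Y-KO replicate 3 was lower than both other Y-KO libraries in 9 of the 10 members, all but Jund. Over all genes tested this held for 39.2%. It was the lowest of all 6 libraries in 7 members, against 21.1% of genes tested, and under 0.5 times the mean of the other Y-KO libraries in 5, namely Fos, Fosb, Egr1, Egr2 and Egr3, against 11.3%. Across the members the median log2 difference of Y-KO replicate 3 from the mean of the other Y-KO libraries was -0.96, against 0.00 over all genes. Fos, Fosb and Junb had Y-KO replicates 1 and 2 above and Y-KO replicate 3 below all Y-Scr libraries, an order found in 4.61% of genes tested. The Y-Scr libraries lay close together: the highest exceeded the lowest by 1.03-fold for Jun and 1.28-fold for Fosl2, the narrowest and widest ratios of the 10. In Y-KO that ratio ran from 1.30-fold for Jun to 5.13-fold for Fosb.

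Markers of several cell types set Y-KO replicate 3 apart too. Summed pan-leukocyte markers stood at 2503, 2548 and 1164 CPM in Y-KO replicates 1, 2 and 3, and from 3282 to 3404 CPM in Y-Scr, with 3 of 8 markers lower. Macrophage markers stood at 1173, 1170 and 644 CPM in Y-KO and from 527 to 569 CPM in Y-Scr, with 5 of 8 higher. Neutrophil markers stood at 616, 598 and 197 CPM in Y-KO and from 1234 to 1427 CPM in Y-Scr, with 4 of 6 lower. Fibroblast markers ran the other way within Y-KO, at 173, 177 and 616 CPM, with 936 to 994 CPM in Y-Scr and 3 of 8 lower. Epithelial markers ranged from 3276 to 3467 CPM in Y-KO and from 2407 to 2735 CPM in Y-Scr, with 4 of 7 higher and 1 lower. Endothelial markers ranged from 23.5 to 39.9 CPM in Y-KO and from 37.9 to 44.6 CPM in Y-Scr, and none of 6 tested passed by edgeR (2 at an unadjusted p under 0.05; DESeq2 called 1, limma-voom 0); Tek had 0 counts in 2 and Emcn in 1 of the Y-KO libraries, and Cldn5 in 1 Y-Scr library. Several of these marker counts rested on single libraries. Over the fits without 1 library, pan-leukocyte markers had 1 to 6 lower, neutrophil markers 1 to 5 lower, macrophage markers 4 to 8 higher, fibroblast markers 3 to 5 lower, and epithelial markers 3 to 4 higher and 1 to 3 lower. The highest counts all came without Y-KO replicate 3, where 1 pan-leukocyte and 1 neutrophil marker were higher and 1 endothelial marker passed in each direction. The counts of 1 pan-leukocyte and 1 neutrophil marker lower came without any one of the Y-Scr replicates. With the close pairs summed, edgeR called 0 pan-leukocyte, 0 neutrophil and 0 endothelial markers, 1 macrophage marker higher, 1 fibroblast marker lower and 2 epithelial markers higher. The part of these cells in the AP-1 and Egr results was not tested.

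Levels of different members were compared per exon length, as TPM (counts per exon length, scaled to the same sum in every library). TPM was not adjusted by TMM, so the groups can compare otherwise than by CPM. Junb had a lower mean in Y-KO than in Y-Scr by TPM (452 against 487) but a higher one by CPM (393 against 358). In Y-KO the order was Junb (452 ± 107 TPM, SD, n = 3 as for all values here), Fos (358 ± 169), Jun (349 ± 48.9), Jund (199 ± 28.0), Fosl2 (42.5 ± 10.3), Fosb (39.9 ± 25.1), Egr1 (36.8 ± 19.1), Fosl1 (22.6 ± 5.97), Egr2 (15.7 ± 6.63) and Egr3 (0.859 ± 0.517). Neighbours overlapped in their libraries, except Jun with Jund, Jund with Fosl2, and Egr2 with Egr3. In Y-Scr the order was Junb (487 ± 6.06 TPM), Fos (262 ± 23.4), Jun (230 ± 12.1), Jund (124 ± 3.53), Egr1 (74.1 ± 8.74), Fosl2 (67.5 ± 10.98), Egr2 (20.7 ± 2.06), Fosb (20.5 ± 2.66), Fosl1 (15.6 ± 0.384) and Egr3 (9.84 ± 1.1995). There only Fos with Jun, Egr1 with Fosl2, and Egr2 with Fosb overlapped. Junb led and Egr3 was last in both groups, and Fosb stood above Egr1 by its mean in Y-KO but below it in Y-Scr. Counted only over exon bases shared with no other gene, a measure added after seeing the data, Jund took rank 2 in Y-KO and rank 3 in Y-Scr, at 419.7 and 261 TPM, and Fosl1 rank 5 in Y-KO and rank 7 in Y-Scr, at 52.7 and 36.5 TPM.

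**Figure D3:**
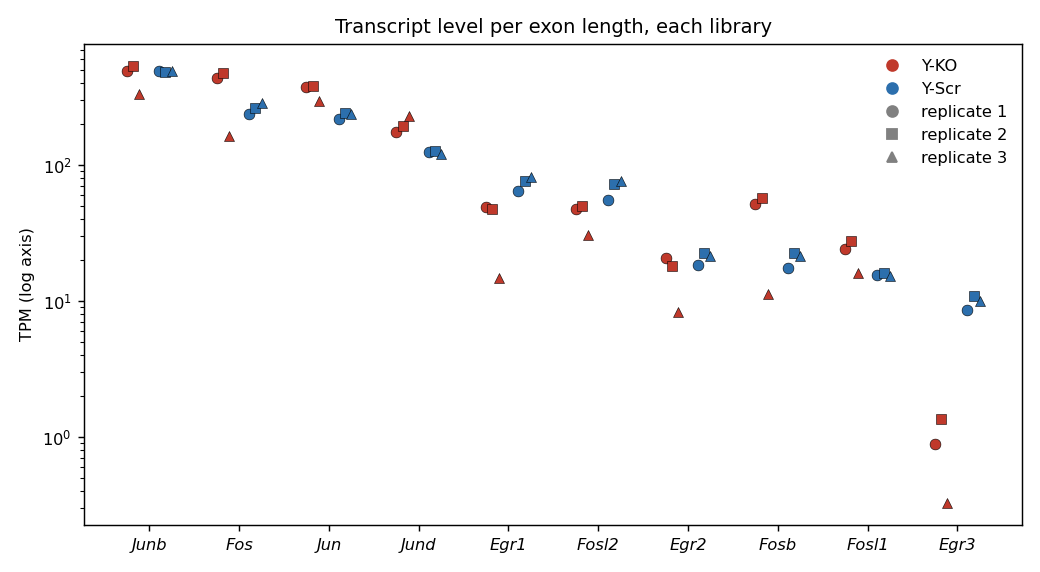
Level per exon length of each member in TPM (vertical log axis) in each Y-KO (red, left) and Y-Scr (blue, right) library, ordered by the Y-Scr mean; marker shape gives the replicate. Junb is highest and Egr3 lowest in both groups.

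Within the families, the make-up differed as well. Summed Fos family TPM were 559, 608 and 222 in Y-KO against 326, 373 and 397 in Y-Scr. Fosl2 made up 8.46%, 8.15% and 13.8% of this sum in Y-KO against 16.9%, 19.2% and 19.1% in Y-Scr, so that its share was lower in every Y-KO library. Fos held 78.1%, 77.9% and 73.9% in Y-KO against 73.0%, 70.5% and 71.7% in Y-Scr, again without overlap. Summed Jun family TPM were 1038, 1109 and 854 in Y-KO against 834, 846 and 845 in Y-Scr. Junb held 47.4%, 48.1% and 38.9% of it in Y-KO against 59.1%, 56.8% and 57.9% in Y-Scr, and Jun 35.8%, 34.5% and 34.3% in Y-KO against 26.0%, 28.2% and 27.9% in Y-Scr. Summed Egr family TPM were 70.4, 66.5 and 23.4 in Y-KO against 91.4, 109 and 113 in Y-Scr, of which Egr3 held 1.26%, 2.05% and 1.40% in Y-KO against 9.37%, 10.0% and 8.86% in Y-Scr. All these shares use the full exon length, of which 52.6% of Jund and 57.2% of Fosl1 overlaps another gene. Over exon bases shared with no other gene, Jund had 419.7 TPM in Y-KO and 261 in Y-Scr. Junb then had 489 and 527 TPM, and Jun 376 and 248. By that measure Jund and Fosl1 hold larger shares, and Junb and Jun smaller ones, than given here. These shares are transcript shares and say nothing of protein, and no test was made of them. The summed TPM were not adjusted by TMM.

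**Figure D4:**
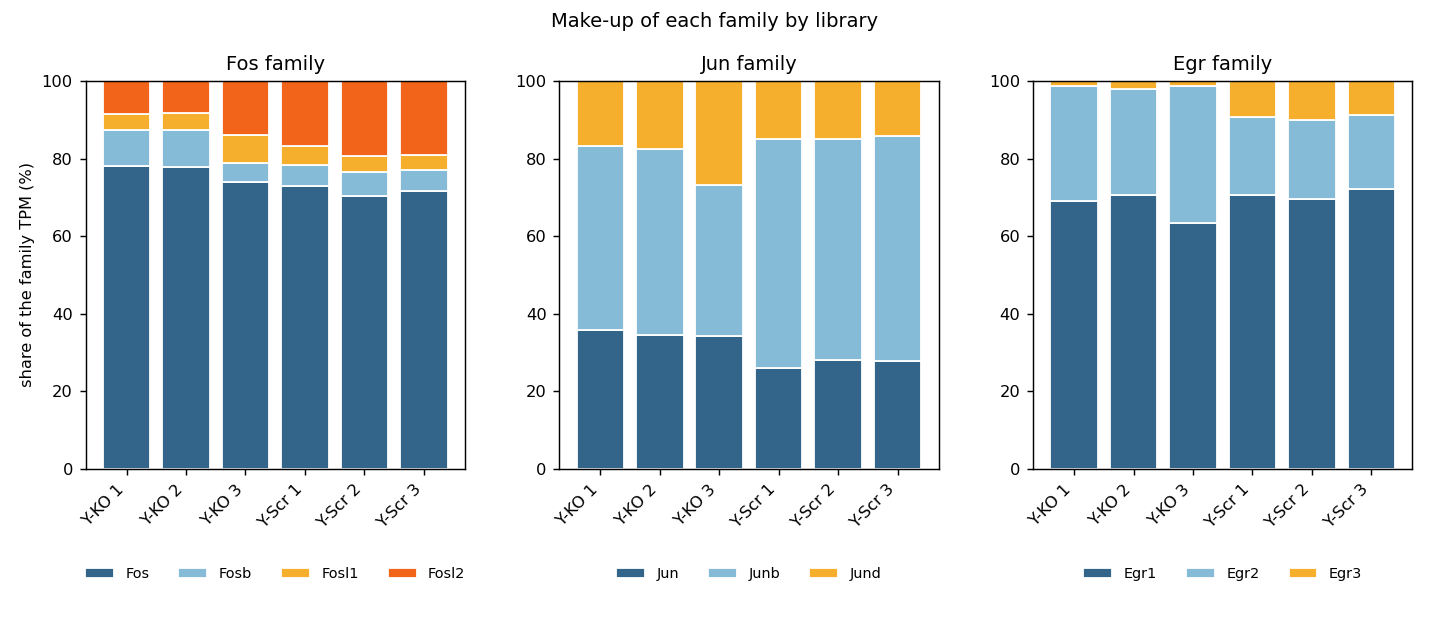
Share of each member in the summed TPM of its family (vertical axis, percent) in each library, Y-KO left and Y-Scr right. TPM use the full exon length, which lowers the shares of Jund and Fosl1, whose exons largely overlap another gene. Fosl2, Junb and Egr3 hold smaller shares in all Y-KO libraries than in all Y-Scr libraries, with Egr3 at 1.26% to 2.05% in Y-KO and 8.86% to 10.0% in Y-Scr.

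Other AP-1 partners moved in part. Of 10 tested, 2 were higher in Y-KO and none lower (median log2 fold change -0.07), against 7.82% and 8.27% of all genes tested. Batf2, a BATF family factor known from interferon-activated macrophages, rose 3.95-fold, to a mean of 20.6 ± 6.49 CPM in Y-KO against 5.20 ± 1.16 in Y-Scr (SD, n = 3 each; edgeR adjusted p = 0.00234). Jdp2, a Jun dimerization repressor, rose 1.67-fold (edgeR adjusted p = 0.00333). The counts were 3 higher and 1 lower without Y-KO replicate 3, and with the close pairs summed 1 higher. The small Maf genes Maff (log2 fold change -0.34, SE 0.11) and Mafk (-0.19, SE 0.11) did not pass. Atf3, a stress-induced factor of the group named after its values were seen, had 60.7, 57.5 and 13.1 CPM in Y-KO against 31.3, 27.3 and 31.7 CPM in Y-Scr, the order seen for Fos and Fosb.

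Genes of the known upstream routes were called in part of the lists and fits. None of the 7 genes of serum response factor, its partners and CREB passed (edgeR; median log2 fold change -0.04). Of these 1 had an unadjusted p under 0.05, and DESeq2 and limma-voom called 0 as well, with Creb1 at -0.33 (SE 0.13), Mrtfa at -0.26 (SE 0.12), Elk3 at -0.14 (SE 0.07) and Elk4 at 0.06 (SE 0.09). Of 10 genes of the Ras to Erk chain, 2 were higher and 1 lower (median 0.14), against 7.82% and 8.27% of all genes tested. In this chain DESeq2 and limma-voom each called 4 higher and 1 lower. Over all genes both tools also called more than edgeR in each direction. The chain had 5 higher and 3 lower without Y-KO replicate 3, and edgeR called 0 with the close pairs summed. The MEK genes Map2k2 and Map2k1 rose 1.31-fold and 1.23-fold, the RAF kinase gene Braf fell 1.37-fold, and Hras did not pass (log2 fold change 0.36, SE 0.11, edgeR adjusted p = 0.0537). These 3 calls were each lost without Y-KO replicate 1 or 2 or Y-Scr replicate 2 or 3, that of Map2k1 also without Y-Scr replicate 1. None of 8 genes of the JNK and p38 chain passed (edgeR; median -0.19), 2 had an unadjusted p under 0.05, and DESeq2 and limma-voom each called 1, with Map2k3 at 0.34 (SE 0.10, edgeR adjusted p = 0.0538), Mapk14 at -0.19 (SE 0.08), Mapk9 at -0.21 (SE 0.10) and Mapk8 at -0.28 (SE 0.14). This list had 1 higher and 1 lower call without Y-KO replicate 3, and the serum response factor list 1 lower there and without Y-Scr replicate 1. In both lists edgeR called 0 with the close pairs summed.

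Other immediate early genes were mixed in direction. Of 27 tested, 6 were higher in Y-KO, 2 lower and 19 did not pass (median log2 fold change 0.22). Over all genes tested, 7.82% were higher and 8.27% lower. Per1, a clock gene also induced by glucocorticoid, rose 2.39-fold (120, 119 and 228 CPM in Y-KO against 67.7, 65.6 and 61.7 CPM in Y-Scr; edgeR adjusted p = 0.00959), and like Jund was highest in Y-KO replicate 3. Ccn1, a matricellular protein gene, rose 1.81-fold, Klf4, a zinc finger factor gene, 1.503-fold and Rhob, a small GTPase gene, 1.38-fold. Per1 lost its call without Y-Scr replicate 2 or 3, Klf4 without these or Y-KO replicate 1, Ccn1 without Y-KO replicate 1 or 2 or Y-Scr replicate 1 or 3, and Rhob without Y-Scr replicate 3. Trib1 and Nfkbiz, named after their values were seen, rose 1.28-fold and 1.25-fold, and each kept its call only with all 6 libraries or without Y-KO replicate 3. The lower genes, named after their values were seen, were the antiproliferative gene Btg2 (1.99-fold) and the orphan receptor gene Nr4a3 (2.03-fold). Both calls were lost without any one of the Y-Scr libraries, and that of Nr4a3 also without Y-KO replicate 2. Y-KO replicate 3 was below both other Y-KO libraries in 20 of the 27 and lowest of all 6 in 11, against 39.2% and 21.1% of all genes tested. Ier3, Zfp36, Nr4a2 and Dusp1, also named afterwards, had Y-KO replicates 1 and 2 above and Y-KO replicate 3 below all Y-Scr libraries. That order was found in 4.61% of all genes tested. Ier3 had 259, 259.8 and 95.1 CPM in Y-KO against 118, 115 and 111 CPM in Y-Scr. Without Y-KO replicate 3 the counts were 14 higher and 4 lower, and across the fits that left out 1 library they ran from 0 to 14 higher and from 0 to 4 lower, with 0 in both directions without Y-Scr replicate 3. Of the 27, edgeR called 0 with the close pairs summed. Over all genes the shares called in either direction were 33.7% without Y-KO replicate 3 and 2.55% with the close pairs summed.

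**Figure D5:**
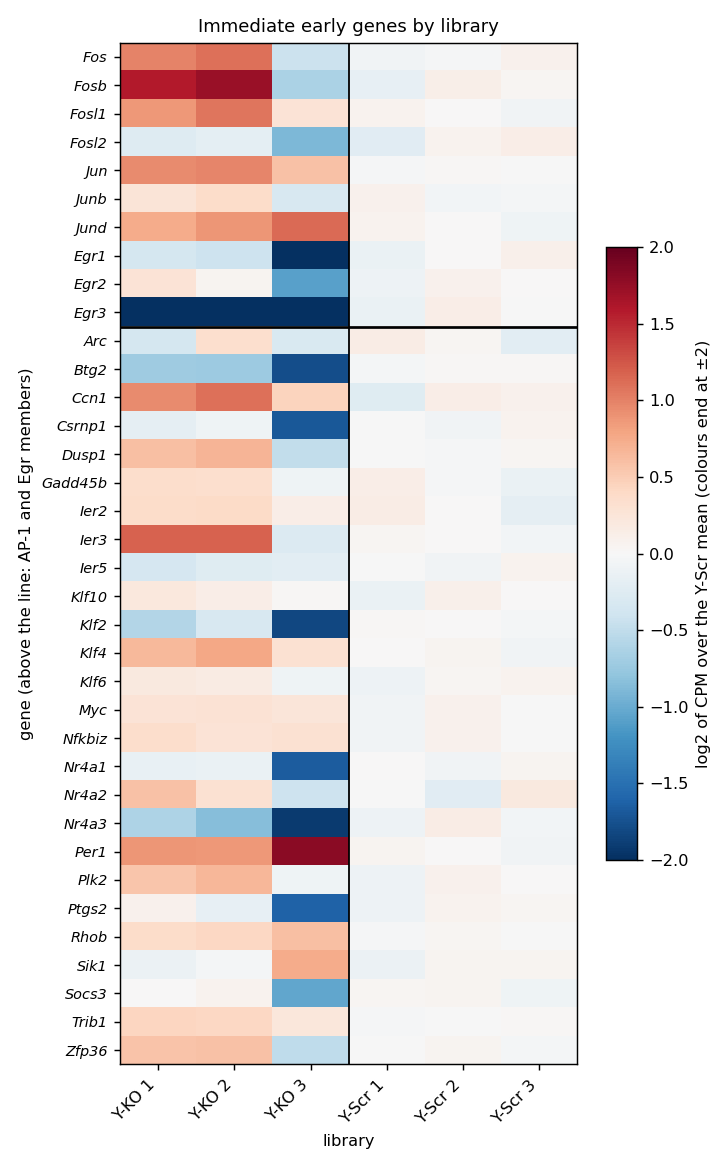
Log2 of CPM over the Y-Scr mean (colour, ending at 2 in each direction) of the 10 members (above the line) and of the other immediate early genes averaging at least 1 CPM (below it; Ccn2 falls under this) in each library, Y-KO left and Y-Scr right. Most rows are lower in Y-KO replicate 3 than in Y-KO replicates 1 and 2, with Jund, Per1, Rhob and Sik1 among the exceptions.

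Tissue handling is known to induce immediate early genes together with heat shock genes, so these were listed. Of 11 heat shock genes, 4 were higher in Y-KO and none lower (median log2 fold change 0.35), against 7.82% and 8.27% of all genes tested. The chaperone genes Hspd1, Hsp90aa1, Hspe1 and Hsp90ab1 rose 1.76-fold, 1.42-fold, 1.28-fold and 1.27-fold. The Hsp90aa1 call was lost without Y-Scr replicate 2, and that of Hspe1 without Y-KO replicate 1 or 2 or Y-Scr replicate 2 or 3. Of the 11, edgeR called 0 with the close pairs summed, and 8 higher without Y-KO replicate 3. The summed level, over all 11, ran from 7744 to 8822 CPM in Y-KO and from 6431 to 6760 CPM in Y-Scr. Hspa1a, the inducible chaperone gene named after its values were seen, had 55.5, 56.6 and 14.9 CPM in Y-KO against 19.7, 19.9 and 15.9 CPM in Y-Scr and did not pass (edgeR adjusted p = 0.0893). The part of tissue handling in the AP-1 and Egr results was not tested.

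Genes known as AP-1 targets went both ways. Of 14 tested, 3 were higher and 2 lower in Y-KO (median log2 fold change 0.30), against 7.82% and 8.27% of all genes tested. Il11 was too low to test. Hmga1, a chromatin protein gene, rose 1.63-fold, and Vegfa, the angiogenic factor gene named after its values were seen, 1.27-fold. The cytokine gene Il6 fell 7.78-fold, with 1.28, 2.17 and 0.363 CPM in Y-KO against 9.27, 11.7 and 8.71 CPM in Y-Scr (edgeR adjusted p = 0.0062), and the gelatinase gene Mmp9 fell 1.75-fold. Of 7 genes known as Egr targets, 1 was higher and 2 lower (median -0.07). The growth factor gene Pdgfb fell 2.59-fold and the death ligand gene Fasl 3.77-fold, while Pdgfa rose 1.46-fold. The AP-1 targets had 7 higher and 3 lower and the Egr targets 2 higher and 3 lower without Y-KO replicate 3. With the close pairs summed, AP-1 targets had 1 higher and Egr targets 2 lower. The Hmga1 and Vegfa calls were each lost without Y-KO replicate 1 or 2 or Y-Scr replicate 2 or 3, that of Vegfa also without Y-Scr replicate 1, and the Mmp9 call without Y-Scr replicate 2 or 3. Ndrg1 did not pass (log2 fold change -0.23, SE 0.10).

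Likeness to each member was taken as the root mean square difference of centred log2 CPM over the 6 libraries, which share the groups and the close pairs. Nearest to Egr3 were Cd55 (0.18), Il6 (0.20) and S1pr1 (0.27), where Egr3 itself varied by 1.82 around its mean. Nearest to Fos were Phf11b (0.06), Cybb (0.06) and Ifi209 (0.08), with Fos varying by 0.57, and nearest to Fosb were F13a1 (0.11), Ppbp (0.12) and Ccl2 (0.18), with Fosb varying by 0.89. Fosl1 was closest to Rab3il1 (0.04), Trem2 (0.05) and H2-Eb1 (0.06), and Jun to Il15ra (0.04), Coq7 (0.04) and Hspa9 (0.04). Jund was closest to Mnd1 (0.06), Rusc2 (0.06) and H2-K1 (0.07), Junb to Rhog (0.04), Noc2l (0.04) and Xbp1 (0.05), and Fosl2 to Celf2, Jak2 and Tbc1d2b (each 0.08). Egr1 was closest to Ankrd33b (0.05), Lilr4b (0.05) and Samsn1 (0.08), and Egr2 to Ubash3b (0.05), Tiam1 (0.05) and Itgax (0.07). Among the members themselves the closest pair was Fosl1 with Jun (0.14).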

How the data were processed

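Poly-A RNA libraries of 3 Y-KO and 3 Y-Scr samples were made with a stranded kit, per the labels' protocols. The authors deposited unnormalized read counts per gene. Per the file headers these came from featureCounts 1.5.3 on GRCm39 with Ensembl release 112 genes and default options. The submitters' processing notes also name FastQC 0.12.1, MultiQC 1.13, Trimmomatic 0.39 and STAR 2.5.2b. By featureCounts defaults, strand was ignored, reads shared by genes were left out and paired reads were counted singly. Of low counts, 80.3% to 82.3% were even in every library, so both reads of a pair were mostly counted and counts exceed the fragments. Symbols came from a gene ID table (51880 of 57186 IDs matched), and all 169 list entries matched. Sequences are RefSeq's (GRCm38.p6).

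The test was that of edgeR 4.0.16 (R 4.3.3) after filterByExpr (minimum count 10, minimum total 15) and TMM scaling, by quasi-likelihood, of Y-KO against Y-Scr with group alone, adjusted by Benjamini-Hochberg over the 17837 genes tested (threshold 0.05). The SE is the log2 fold change divided by the square root of F. TPM used the exon length in the deposited table. Fit and calls were tested on counts simulated for independent libraries. That simulation held no close pairs, so it cannot check the calls under the closeness of libraries seen here. Text names all members, up to 4 members with the smallest p per pathway list, and the 3 genes nearest each member among genes averaging at least 2 CPM (prior count 2; gene models and pseudogenes left out); others are said to be named afterwards. Some genes within the list counts are not reported here by name. Members, lists and alternatives were chosen with earlier results of these data known. Alternatives were DESeq2 1.42.0, limma-voom (3.58.1), scalings, filters, a test against a fold of 1.5, halved counts, close pairs summed, a replicate block and leaving out each library. Depth of 42040955 to 52951031 counts limits precision only for the lowest genes. Plots used matplotlib 3.10.9.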

Additional observations from a re-analysis of the deposited data

How the results depend on the processing

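The counts of AP-1 and Egr members called (3 higher, 1 lower) were the same under DESeq2, limma-voom, RLE and upper-quartile scaling, halved counts and a filter of 1 CPM in 3 libraries. With no filter they were 5 higher and 3 lower (Fos, Fosb, Fosl2 and Egr1 added), where 1553 of all genes were higher and 1984 lower. Against a fold of 1.5 they were 1 higher (Jund) and 1 lower, and with the close pairs summed also 1 and 1. With library size alone they were 2 and 1. Leaving out 1 library gave 2 to 6 higher and 1 to 2 lower, the extremes of 6 and 2 without Y-KO replicate 3. Of the single members, Junb reversed to -0.0082 on the log2 scale with library size alone. Egr2 reversed to 0.16 without Y-KO replicate 3, in a range of -0.41 to 0.16 over the fits without 1 library; the cause was not tested. Jund and Egr3 kept their calls in every alternative run.

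Over all genes the main counts were 1395 higher and 1476 lower. They were 730 and 2255 with library size alone, 176 and 490 against a fold of 1.5, 136 and 360 with the close pairs summed, and 461 to 3029 higher and 560 to 3364 lower without 1 library, the highest without Y-KO replicate 3. DESeq2 gave 1674 and 1943 over all genes, limma-voom 1525 and 1754, and edgeR with no filter 1553 and 1984. Over the 9 pathway lists 18 were higher and 8 lower. These were 12 and 17 with library size alone, 15 and 11 with upper-quartile scaling, 2 and 3 against a fold of 1.5, 2 and 2 with the close pairs summed, and 7 to 40 higher and 3 to 17 lower without 1 library. The lowest came without Y-Scr replicate 3 and the highest without Y-KO replicate 3; counts moved by over 1.5 times also without Y-KO replicate 1 (9 higher), Y-KO replicate 2 (10 and 5) and Y-Scr replicate 2 (8 and 3). The fold between the highest and lowest member by mean TPM was 527 in Y-KO and 49.5 in Y-Scr, and moved by less than the spread between libraries under every alternative run.

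The replicate numbers did not pair the libraries: deviations of same-numbered libraries correlated at -0.0145 to 0.0049, and 0 of the 3 Y-KO libraries correlated best with its own number. With the replicate number as a block, 946 genes were higher and 1120 lower, and the members called were again 3 and 1. Depth limits Egr3 most, at 24 to 100 counts per Y-KO library.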
